A study of Mus musculus with 2 samples.

Results

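The 3 homeobox genes *Rax*, *Lhx2* and *Hmx1*, out of 27998 genes counted, were followed through single cells of the ocular area of mouse embryos. They were chosen by name, and their levels and co-detection were read in classes of cells gated on markers that include none of the 3. Each of 2 C57BL/6J embryos at the 26 somite stage (E9.25), 1 labelled WT and 1 labelled KO (*Mab21l1*-null), gave a pair of optic areas that was dissociated into 1 library of the Chromium Single Cell 3′ system (v3). This system tags each captured transcript at its 3′ end with the barcode of its droplet and a unique molecular identifier (UMI). As there was 1 embryo and 1 library per genotype, differences between the libraries could not be set against a spread of replicates, and none was tested. The intervals given are exact 95% intervals for counting error only (Poisson for levels, conditional for ratios, Clopper-Pearson for shares of cells).

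*Rax* encodes a paired-type homeodomain factor of the eye field, which is needed for the optic vesicle to form, and stays on in retinal progenitors. *Lhx2* encodes a LIM homeodomain factor that acts in the optic vesicle as it is patterned into retina and pigment epithelium, and also in the early forebrain. *Hmx1* encodes an NK-related homeodomain factor of the retina, lens and sensory ganglia, known for eye and ear malformations when it is lost.

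After filtering, 1680 cells with 41880035 UMIs (median 21037 per cell) remained in the WT-labelled library and 2404 cells with 52430844 UMIs (median 18135) in the KO-labelled library, and 15 barcode sequences occurred in both. *Mab21l1*, the disrupted gene, was counted in both libraries. In all neural cells it was at 27.8 UMIs per 1000000 (CPM) in the WT-labelled library and 47.7 CPM in the KO-labelled library, a KO over WT ratio of 1.72 (1.56 to 1.89). It was lower in the library labelled KO in surface ectoderm with neural markers (104 and 55 CPM, ratio 0.529, 0.337 to 0.810) and in pigment cells (38.3 and 23.5 CPM, ratio 0.613, 0.388 to 0.964). In neural cells the targeted gene thus went against the labels. The counts are of 3′ ends, and whether the disrupted allele leaves a 3′ transcript was not tested. Every direction given here is that between the library labelled KO and the library labelled WT. Globin RNA, made by red cells, stood at 192 CPM in retina cells labelled WT and 397 CPM in those labelled KO, and it was higher in the library labelled KO in each of the 19 classes described below. Whether it came from free RNA or from droplets that also held a red cell was not tested, nor was its part in the results.

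Cells were gated by the number of markers with a UMI. Of 754 neural cells labelled WT and 1089 labelled KO, those past the retina gate alone (at least 3 of 7 markers such as *Six6*, *Fgf15*, *Nr2e1* and *Aldh1a3*) are called retina cells, and there were 181 and 335 of them. Cells past the gate of pigment genes alone, such as *Mitf* and *Pmel*, are called pigment cells (50 and 72), and cells past the gate of telencephalic and diencephalic genes alone, such as *Emx2* and *Fezf1*, forebrain cells (59 and 77). Many neural cells passed more than 1 of these gates, and such combinations are kept as classes of their own, named by the gates joined with a plus sign. A further gate, of ventral optic vesicle and optic stalk genes such as *Pax2* and *Vax2*, left 12 and 17 cells by itself and is used only in combination. Markers were counted at full depth, so deeper cells could pass more gates. Median depths were 50377 and 39215.5 UMIs in cells past all 4 gates, 19895 and 19988 in retina+forebrain cells and 21066 and 19224 in retina cells. Whether combinations are cell states or follow from depth was not tested. In all, 10 neural classes and 9 others had at least 20 cells in each library. Summed retina markers were at 1471 and 1355 CPM in retina cells against 204 and 274 CPM in forebrain cells, and summed forebrain markers at 14.9 and 16.7 CPM against 435 and 450 CPM. The cells were gated on these same markers, so such sums follow from the gates and are no check of the classes. Retina markers summed to 791 and 609 CPM in pigment cells, of which *Aldh1a3* by itself gave 507 and 370 CPM, against 127 and 136 CPM of it in retina cells.

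*Rax* had its highest level in retina cells in both libraries and was low in every class without neural markers. It reached 264 CPM (248 to 280) from 1078 UMIs in retina cells labelled WT and 266 CPM (254 to 278) from 1927 UMIs in those labelled KO, clear of the next class in each library. It was lower in pigment cells, at 114 and 82.8 CPM, where the retina level was 2.31-fold (1.94 to 2.79) and 3.21-fold (2.69 to 3.85) as high. It was lower still in forebrain cells labelled WT, at 55.8 CPM, but stood at 82.1 CPM in forebrain cells labelled KO, within counting error of the pigment cells there. In the library labelled WT, the classes from rank 2 (retina+pigment, 146 CPM) to rank 11 (forebrain) differed from each neighbour in the order by no more than counting error. Outside neural tissue *Rax* was low: 1.56 and 3.48 CPM in erythroid cells, 2.21 and 5.83 CPM in endothelium, and 4.25 and 6.61 CPM in all mesenchyme, where the KO over WT ratio was 1.56 (1.05 to 2.33). That ratio rested on 40 and 81 UMIs, and 1 cell labelled KO held 7 of the 81. The share of all genes with such a ratio in mesenchyme was not counted. In surface ectoderm *Rax* had 1 UMI in the WT-labelled library and 0 in the KO-labelled library, where the 0 allows a level of up to 10.6 CPM.

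The share of retina cells with a *Rax* UMI was 85.6% of 181 (median depth 21066 UMIs) in the WT-labelled library and 88.4% of 335 (median 19224) in the KO-labelled library. With each cell thinned to 10000 UMIs it was 81.3% (135 of 166) and 82.2% (267 of 325). The same share unthinned was 5.56% of erythroid cells labelled WT and 12.2% of those labelled KO, at the greater median depths of 32480.5 and 33437 UMIs, and the retina share stood far above it. *Rax* occupies bases 65928277 to 65939787 of chromosome 18 (minus strand, GRCm38), and an exon of *Raxos1* on the other strand overlaps an exon of it. *Raxos1* had 23 UMIs in all neural cells labelled WT and 24 in those labelled KO, against 2940 and 4299 for *Rax*.

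*Rax* counts were uneven among retina cells, with a variance 2.04 and 1.90 times the mean in thinned cells, where Poisson sampling gives a ratio near 1. Counts of *Lhx2* in the same cells had ratios of 1.20 and 1.24, and those of *Hmx1* 1.85 and 1.33. This ratio also depends on the mean count, so it does not rank genes of unlike level by unevenness.

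**Figure D1:**
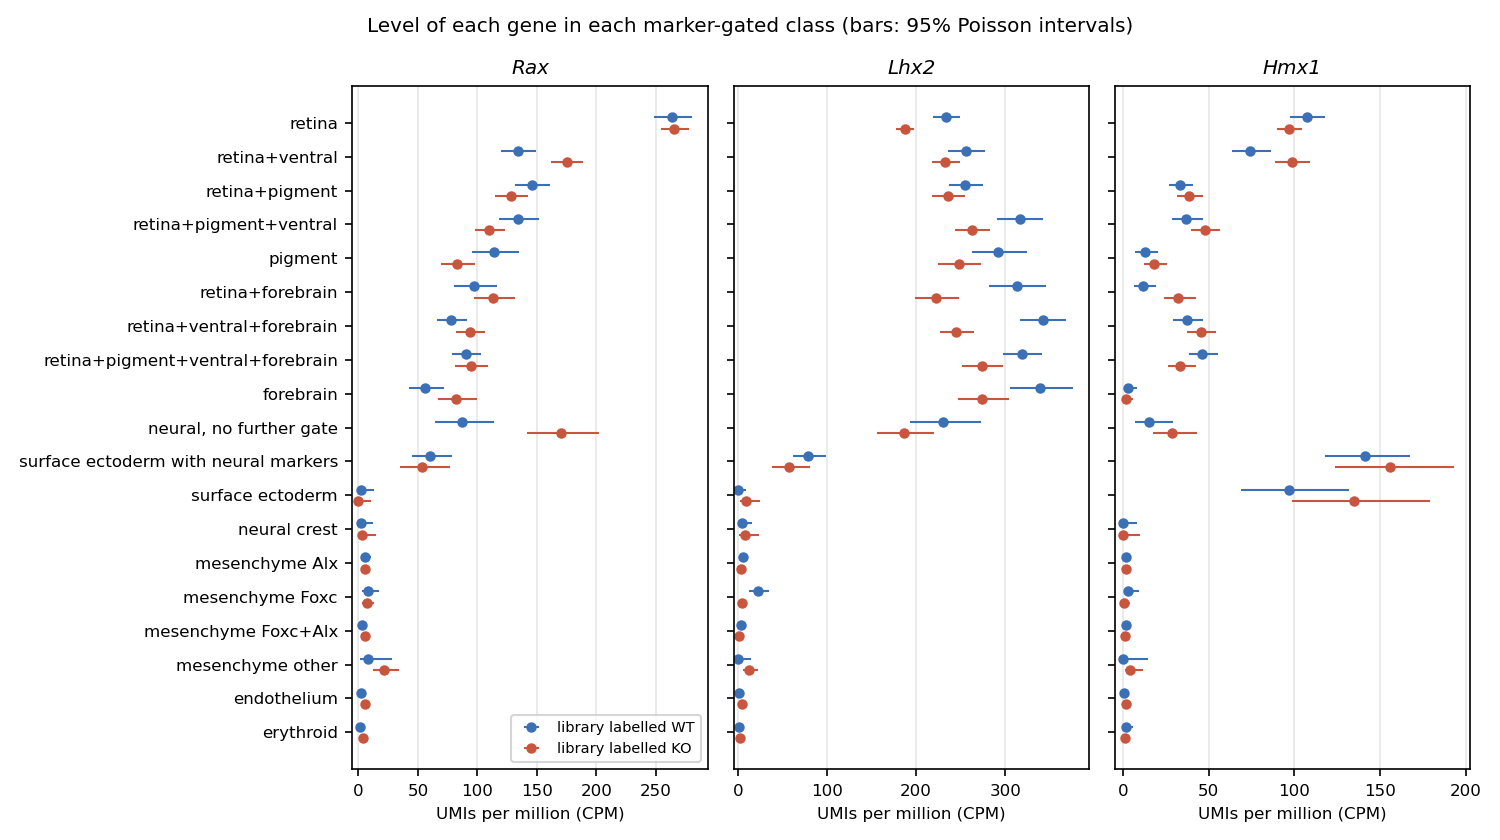
Levels of *Rax*, *Lhx2* and *Hmx1* (CPM, x axis) in each of 19 marker-gated classes (y axis) in the library labelled WT (blue) and the library labelled KO (red), with bars for 95% Poisson intervals. *Rax* peaks in retina cells (264 and 266 CPM), and *Hmx1* is high in retina cells and in both surface ectoderm classes. *Lhx2* spans all neural classes, and its highest value in each library is in a class with forebrain markers. Not every such class is high in it: retina+forebrain cells labelled KO (222 CPM) lie below pigment cells labelled KO (248 CPM).

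*Lhx2* differed from *Rax* in that all neural classes held it at 186 CPM or more and in that it was lower in retina cells than in forebrain cells. It stood at 234 CPM (219 to 249) in retina cells labelled WT and 188 CPM (178 to 198) in those labelled KO. Forebrain cells had 339 CPM (306 to 376) and 274 CPM (246 to 305), so that the retina level was 0.690 (0.611 to 0.780) and 0.684 (0.607 to 0.771) of the forebrain level. Pigment cells lay between, at 292 and 248 CPM. All 10 neural classes held between 230 and 342 CPM in the WT-labelled library and between 186 and 274 CPM in the KO-labelled library, and in the library labelled WT no neighbours in that order differed beyond counting error. In the library labelled KO the step from retina+forebrain cells (222 CPM) to retina cells was the one that did. *Lhx2* was found in nearly every neural cell, 97.7% and 96.3% unthinned (median depths 24776.5 and 21725 UMIs) and 91.7% and 86.7% thinned, beside 5.56% and 8.16% of erythroid cells unthinned. Outside neural tissue it was at 1.11 and 4.58 CPM in endothelium, 1.56 and 2.32 CPM in erythroid cells and 5.21 and 2.94 CPM in all mesenchyme, with a KO over WT ratio there of 0.564 (0.357 to 0.886). The mesenchyme ratio rested on 49 and 36 UMIs, and no background share was counted for it.

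The mesenchyme with *Foxc1*, *Foxc2* and *Foxd2* markers and no *Alx* gate held 17 *Lhx2* UMIs in 45 cells labelled WT (22.1 CPM) and 6 in 93 cells labelled KO (4.25 CPM). Of those 17 UMIs, 8 came from 1 cell, and without the highest cell of each library the KO over WT ratio was 0.296 (0.0778 to 0.982) in place of 0.192 (0.0621 to 0.511). The value therefore turned on few cells.

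*Lhx2* occupies bases 38339281 to 38369733 of chromosome 2 (plus strand, GRCm38), and no exon of another gene overlaps its exons. RefSeq (GRCm38.p6) gives it 2 start sites, and the first is shown as the promoter of the neural-wide member, from 250 bases before the start to 50 after it (chr2:38339031-38339330, plus strand). Capitals mark the GC box GGGCGG, searched on both strands.
*Lhx2*: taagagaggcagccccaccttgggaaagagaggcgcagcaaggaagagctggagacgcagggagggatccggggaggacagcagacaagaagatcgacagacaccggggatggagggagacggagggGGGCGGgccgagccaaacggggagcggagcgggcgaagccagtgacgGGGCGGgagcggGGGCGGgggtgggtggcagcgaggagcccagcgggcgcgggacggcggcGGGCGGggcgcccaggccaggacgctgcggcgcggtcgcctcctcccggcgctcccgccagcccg
This window had 4 GC boxes and 74.7% G and C. The window of the second start (chr2:38351058-38351357) had none and 69.3% G and C. Of all 32851 RefSeq promoter windows, 35.7% held a GC box. The homeodomain core TAATTA, searched on both strands and held by 5.29% of windows, was not among the letters of this one.

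*Hmx1* was counted both in retina cells and in the surface ectoderm, where *Rax* and *Lhx2* were at or near 0. In retina cells it stood at 107 CPM (97.6 to 118) in the WT-labelled library and 96.9 CPM (89.9 to 104) in the KO-labelled library. In surface ectoderm that did not pass the neural gate, it was at 96.6 CPM (69.0 to 132) from 40 UMIs in 24 cells labelled WT. In 24 such cells labelled KO it was at 135 CPM (98.9 to 179) from 47 UMIs. Its highest levels were in surface ectoderm with neural markers, at 141 CPM (118 to 168) in 36 cells labelled WT and 156 CPM (124 to 193) in 20 cells labelled KO, the latter within counting error of surface ectoderm. The retina level was 1.11 (0.804 to 1.58) of the surface ectoderm level in the WT-labelled library and 0.721 (0.536 to 0.990) of it in the KO-labelled library.

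A UMI of *Hmx1* was found in 61.3% and 71.3% of retina cells unthinned and in 52.4% and 53.5% after thinning, beside 2.78% and 4.08% of erythroid cells unthinned. The order of the unthinned shares goes against that of the levels and is not read.

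In pigment cells *Hmx1* was at 12.5 and 17.9 CPM, and the retina level was 8.61-fold (5.16 to 15.5) and 5.41-fold (3.73 to 8.14) as high. Forebrain cells had 3 UMIs (2.74 CPM) and 2 UMIs (1.56 CPM), beside 1.56 and 1.16 CPM in erythroid cells and 0.554 and 1.67 CPM in endothelium. Neural crest had 0 UMIs in both libraries, which allows up to 8.235 CPM in the WT-labelled library and 9.92 CPM in the KO-labelled library. In forebrain cells, where *Lhx2* was among its highest, *Hmx1* was thus within counting error of cells that should lack it.

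In surface ectoderm with neural markers the members overlapped but were found in unlike shares of cells. *Hmx1* had a UMI in 35 of 36 such cells labelled WT and 19 of 20 labelled KO. *Rax* had one in 12 and 5 of these cells and *Lhx2* in 10 and 9, and at least 50% of the *Lhx2* UMIs lay in 2 cells of each library. These cells also expressed *Aldh1a3*, a retinoic acid synthesis enzyme and a retina gate marker, at 986 and 1128 CPM. Surface ectoderm shared it, at 698 and 1025 CPM. The markers of the neural gate include *Pax6*, *Six3* and *Sox2*. The paper counts these among genes higher in the lens placode than in the surface ectoderm around it. Whether this class holds lens placode cells, or droplets with cells of both kinds, was not tested.

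*Hmx1* occupies bases 35389108 to 35399730 of chromosome 5 (plus strand, GRCm38), and an exon of 4930442P19Rik on the other strand overlaps an exon of it.

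The number of markers in a cell was also used as a scale, with every cell thinned to 10000 UMIs so that depth did not set it. From 1 to 5 retina markers detected, *Rax* went from 79.6 to 224 CPM in neural cells labelled WT and from 87.2 to 273 CPM in those labelled KO. *Hmx1* went from 8.74 to 79.4 CPM and from 16.3 to 124 CPM. *Lhx2* was lower at the upper end, going from 305 to 241 CPM and from 276 to 218 CPM. *Rax* and *Hmx1* thus had their higher levels where more retina genes were detected, and *Lhx2* did not.

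Along the forebrain scale, from 0 to 3 markers, *Rax* went from 173 to 70.6 CPM and from 196 to 53.5 CPM, and *Hmx1* from 62.2 to 11.8 CPM and from 72.6 to 3.45 CPM. *Lhx2* went from 272 to 329 CPM in the WT-labelled library and from 218 to 303 CPM in the KO-labelled library. Along the pigment scale, from 0 to 4 markers, *Rax* went from 150 to 102 CPM and from 188 to 67.8 CPM and *Hmx1* from 58.7 to 17.5 CPM and from 69.3 to 8.48 CPM. There *Lhx2* stood between 276 and 297 CPM in the library labelled WT. In the library labelled KO it went from 216 CPM at 0 markers to 283 CPM at 3 and 252.5 CPM at 4. With more ventral markers, from 0 to 3, *Rax* went from 169 to 88.9 CPM and from 181 to 111 CPM. *Lhx2* went from 259.5 to 324 CPM and from 218 to 244 CPM. With 0 and 3 markers *Hmx1* was at 35.1 and 39.7 CPM (WT) and at 44.5 and 52.7 CPM (KO). Between these steps it was higher, at 56.2 CPM with 1 marker (WT) and 63.2 CPM with 2 (KO). Only the library labelled KO had a step of at least 20 cells with 4 ventral markers (28 cells). There *Rax* was at 60.7 CPM, *Lhx2* at 221 CPM and *Hmx1* at 64.3 CPM (38.1 to 101.6). The same cells enter each scale, so the scales are not independent of each other.

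**Figure D2:**
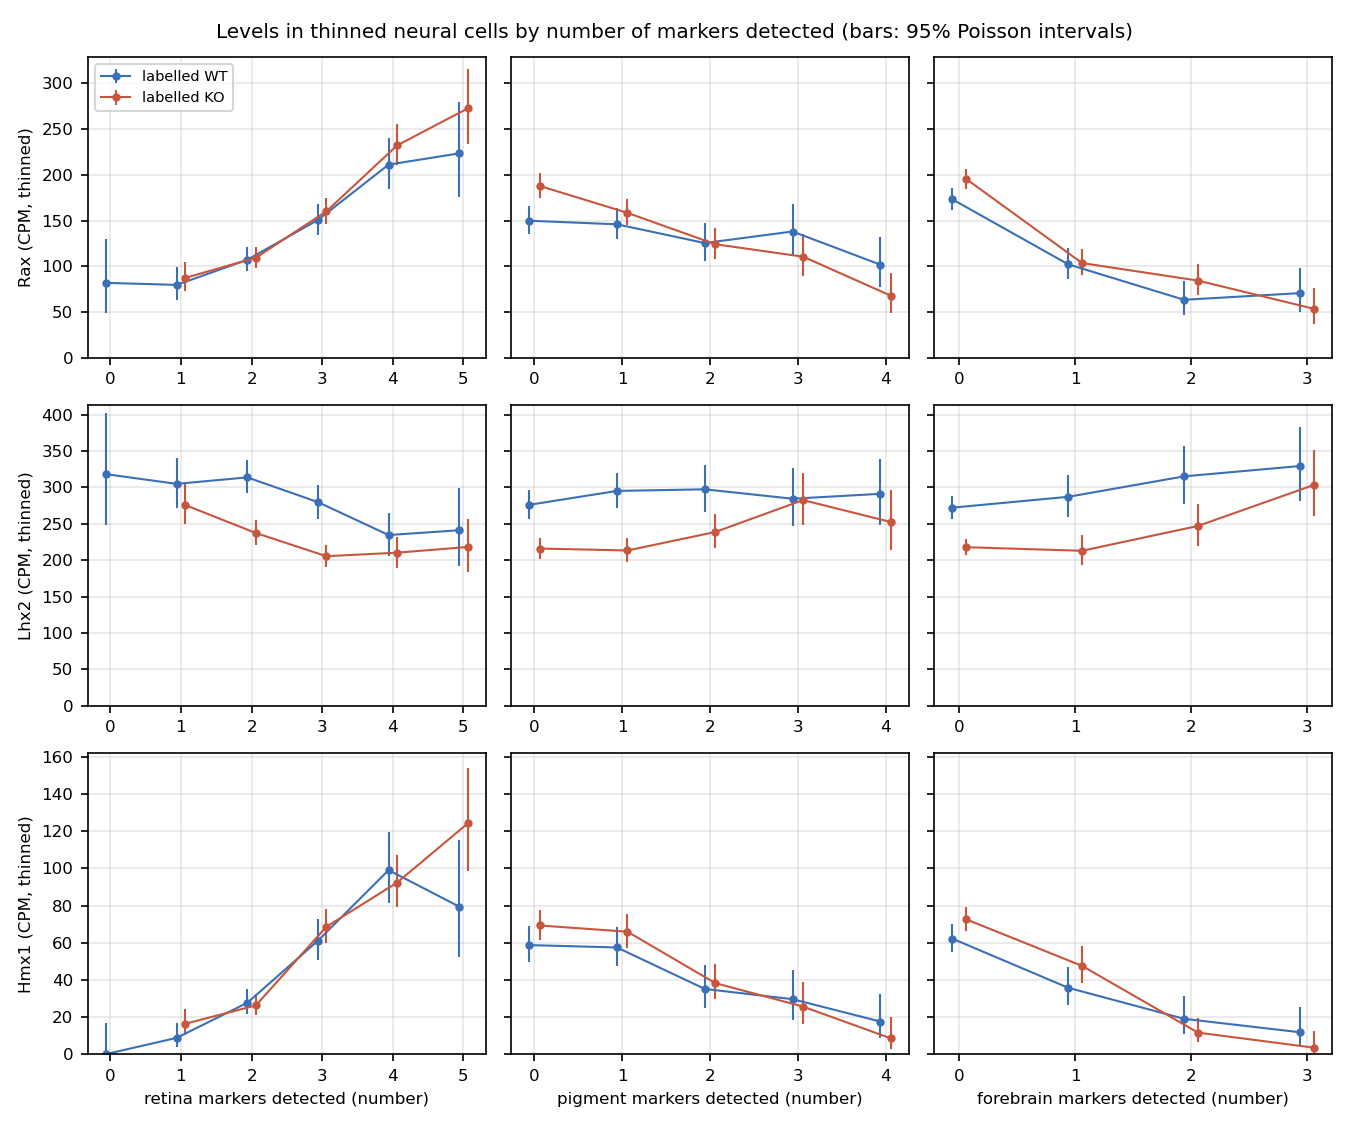
Level of each member (rows, CPM in cells thinned to 10000 UMIs, y axis) in neural cells sorted by the number of retina, pigment or forebrain markers detected (columns, x axis), in the library labelled WT (blue) and labelled KO (red), with 95% Poisson intervals and only steps of at least 20 cells. *Rax* and *Hmx1* are higher with more retina markers and lower with more pigment and forebrain markers, while *Lhx2* goes from 305 to 241 CPM and from 276 to 218 CPM over the retina markers.

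Position within the optic vesicle was read from genes with known domains: *Tbx5* dorsally and *Vax2* ventrally. These gates were applied to 462 cells labelled WT and 739 labelled KO that passed the retina or pigment gate and carried fewer than 2 of 9 forebrain markers. These cells pool several classes, and *Vax2* is also a marker of the ventral gate. Position and class make-up could therefore not be told apart here. *Rax* and *Hmx1* were higher in cells with *Tbx5* and no *Vax2* than in cells with *Vax2* and no *Tbx5*. For *Rax* the levels were 287 and 146 CPM in the library labelled WT (ratio 1.96, 1.78 to 2.17) and 261 and 159 CPM in the library labelled KO (1.64, 1.5 to 1.79). For *Hmx1* they were 119 and 49.7 CPM (2.40, 2.05 to 2.82) and 114 and 69.1 CPM (1.64, 1.44 to 1.88). *Lhx2* was lower on the *Tbx5* side, with ratios of 0.818 (0.743 to 0.900) and 0.808 (0.735 to 0.887). The *Tbx5* over *Vax2* ratios kept their direction for all 3 members in both libraries when 2 UMIs were required of the gate gene.

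**Figure D3:**
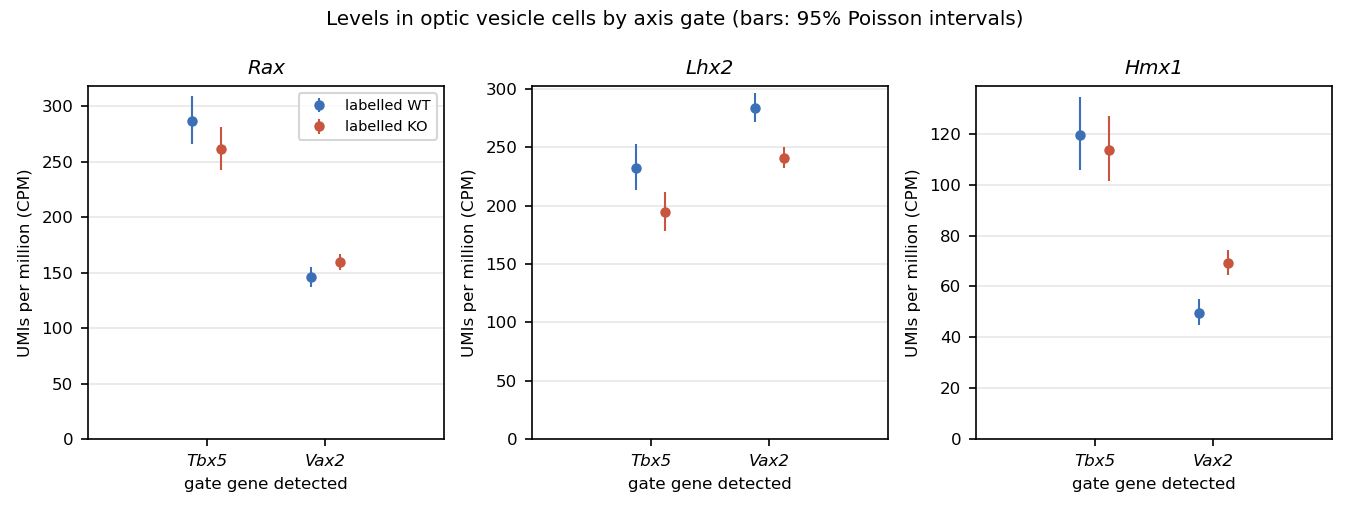
Level of each member (CPM, y axis) in optic vesicle cells with *Tbx5* and no *Vax2* or the reverse (x axis), in the library labelled WT (blue) and labelled KO (red), with 95% Poisson intervals. *Rax* and *Hmx1* are higher in *Tbx5* than in *Vax2* cells, and *Lhx2* is lower.

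Co-detection was counted in cells thinned to 10000 UMIs. All 3 members were found in 67 of 166 retina cells labelled WT (40.4%, 32.8 to 48.2) and in 126 of 325 labelled KO (38.8%, 33.4 to 44.3), beside 36.7% and 35.6% for the product of the single shares. *Rax* and *Lhx2* without *Hmx1* followed, in 29.5% and 27.1% of retina cells. In pigment cells the pair *Rax* and *Lhx2* was found in 50% and 31.8%, and *Lhx2* alone in 34.0% and 45.5%. The most frequent combination in forebrain cells was *Lhx2* alone, in 35 of 55 (63.6%) and 35 of 71 (49.3%). All 3 members were found together in 0 of 55 and 0 of 71, which allows shares of up to 6.49% and 5.06%. In surface ectoderm *Hmx1* alone was found in 11 of 21 and 15 of 22 cells, and in none of these thinned cells with *Rax* or *Lhx2*. That 0 allows shares of up to 16.1% and 15.4%. Few cells could hold a pair, as only 1 cell labelled WT had *Rax* and 2 labelled KO had *Lhx2*.

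Within retina cells, *Hmx1* was found more often in cells with *Rax* than in cells without it, and about as often with as without *Lhx2*. *Hmx1* was found in 57.8% of 135 cells with *Rax* and 29.0% of 31 cells without it in the library labelled WT, and in 58.4% of 267 and 31.0% of 58 in the library labelled KO. It was found in 51.7% of 143 cells with *Lhx2* and 56.5% of 23 without in the library labelled WT, and in 54.0% of 263 and 51.6% of 62 in the library labelled KO. The cells of each library come from 1 embryo, so these shares describe the libraries.

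**Figure D4:**
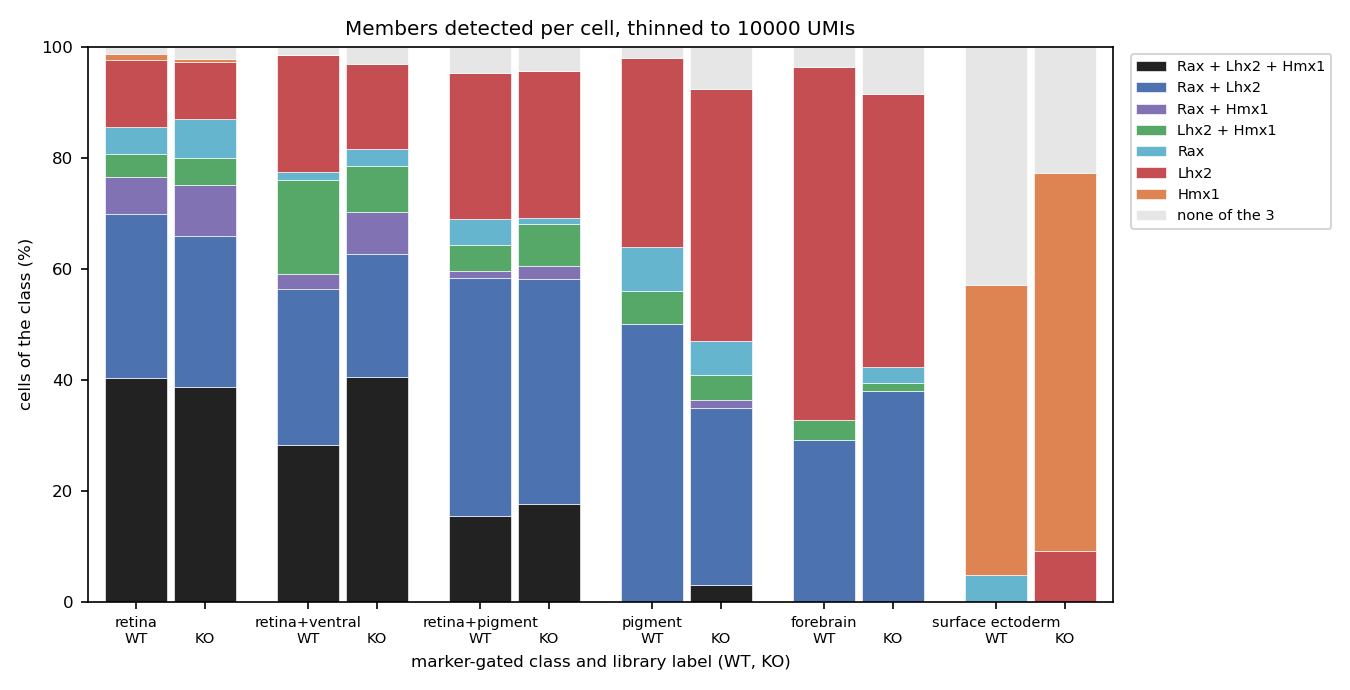
Share of cells (%, y axis) with each combination of *Rax*, *Lhx2* and *Hmx1* detected, after thinning to 10000 UMIs per cell, in 6 classes of each library (x axis). Cells with all 3 members make up 40.4% and 38.8% of retina cells and none of the forebrain cells, where *Lhx2* alone leads, and most surface ectoderm cells have *Hmx1* alone or none.

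Between the libraries, *Lhx2* was lower in the library labelled KO throughout the neural tissue, by less than 1.5-fold. In all neural cells it went from 288 to 232 CPM, a KO over WT ratio of 0.805 (0.777 to 0.833), and in retina cells the ratio was 0.802 (0.737 to 0.872). It was 0.848 (0.733 to 0.982) in pigment cells, 0.809 (0.697 to 0.939) in forebrain cells and as low as 0.711 (0.612 to 0.826) in retina+forebrain cells. The ratio was under 1 in 10 of 10 neural classes, with an interval clear of 1 in 7. In retina+pigment cells it was 1.12 (0.957 to 1.31) when gates were set on thinned cells. The classes hold different cells but come from the same 2 embryos. Of 3328 genes with at least 50 UMIs in each of these classes, 4.51% were lower in the library labelled KO in all 10. The share of genes with an interval clear of 1 in 7 of the classes was not counted. In single classes, genes that were lower with an interval clear of 1 made up 12.6% of genes in all neural cells, 7.52% in retina cells, 9.89% in pigment cells and 5.09% in forebrain cells. Across the other ways of gating and scaling tried, the ratio of *Lhx2* in all neural cells lay between 0.797 and 0.819.

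*Rax* was 137 CPM in all neural cells labelled WT and 154 CPM in those labelled KO, a ratio of 1.12 (1.07 to 1.18). All neural cells pool classes whose make-up differed between the libraries. Retina cells were 181 of 754 labelled WT and 335 of 1089 labelled KO. The part of this make-up in the pooled ratios was not tested. The *Rax* ratio was 1.007 (0.934 to 1.09) in retina cells, where its level was highest, and 1.31 (1.14 to 1.499) in retina+ventral cells. In pigment cells it was lower in the library labelled KO, at 0.726 (0.568 to 0.929), and in forebrain cells higher, at 1.47 (1.06 to 2.05). These values depended on the gates: the pigment value was 0.932 (0.759 to 1.14) with cells gated after thinning, and the forebrain value 1.04 (0.782 to 1.39) with 1 marker more. In neural cells with no further gate it was 1.96 (1.40 to 2.77), from 51 and 126 UMIs. Background shares for the higher side were 11.6% of genes in all neural cells, 6.33% in retina+ventral cells and 6.64% in forebrain cells. The retina value depended on the gates and reached 1.19 with 1 marker fewer required in every gate. The retina+ventral value was 0.965 (0.799 to 1.17) with 1 marker more in every gate.

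*Hmx1* was at 48.2 CPM in all neural cells labelled WT and 58.2 CPM in those labelled KO, a ratio of 1.21 (1.11 to 1.30). As for *Rax*, this pooled ratio mixes any change within classes with the larger part of retina cells in the library labelled KO. Retina cells had a ratio of 0.902 (0.800 to 1.02) and retina+ventral cells of 1.33 (1.11 to 1.60), the latter 0.933 (0.777 to 1.12) with 1 marker fewer required. In retina+forebrain cells it rested on 14 and 48 UMIs, with a ratio of 2.81 (1.53 to 5.53), and the highest cell held 4 and 11 of these UMIs. In cells past all 4 gates the ratio was 0.722 (0.527 to 0.982), at median depths of 50377 and 39215.5 UMIs. In surface ectoderm the ratio was 1.39 (0.894 to 2.18) and in surface ectoderm with neural markers 1.10 (0.826 to 1.47), where *Mab21l1* was lower. Both intervals held 1, so no difference of *Hmx1* in ectoderm could be told from counting error.

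With the gates and scaling first used, none of the members with at least 50 UMIs was past 1.5-fold in retina, pigment, forebrain or all neural cells. The ratio of *Rax* in forebrain cells was close to it, and lay between 1.04 and 1.54 over the settings tried. Over all genes with that many UMIs the share past 1.5-fold in either direction was 4.42% in retina cells, 8.72% in pigment cells, 7.55% in forebrain cells and 2.87% in all neural cells. In the other neural classes, the members past it with that many UMIs were *Rax* in neural cells with no further gate (1.96) and *Hmx1* in retina+forebrain cells (2.81). There the background shares were 9.31% and 7.75%. In all mesenchyme *Rax* (1.56) and *Lhx2* (0.564) were past it, and no background share was counted there. In retina cells, genes past 1.5-fold included *Vax2* at 1.60, a gate marker, and none of the members.

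**Figure D5:**
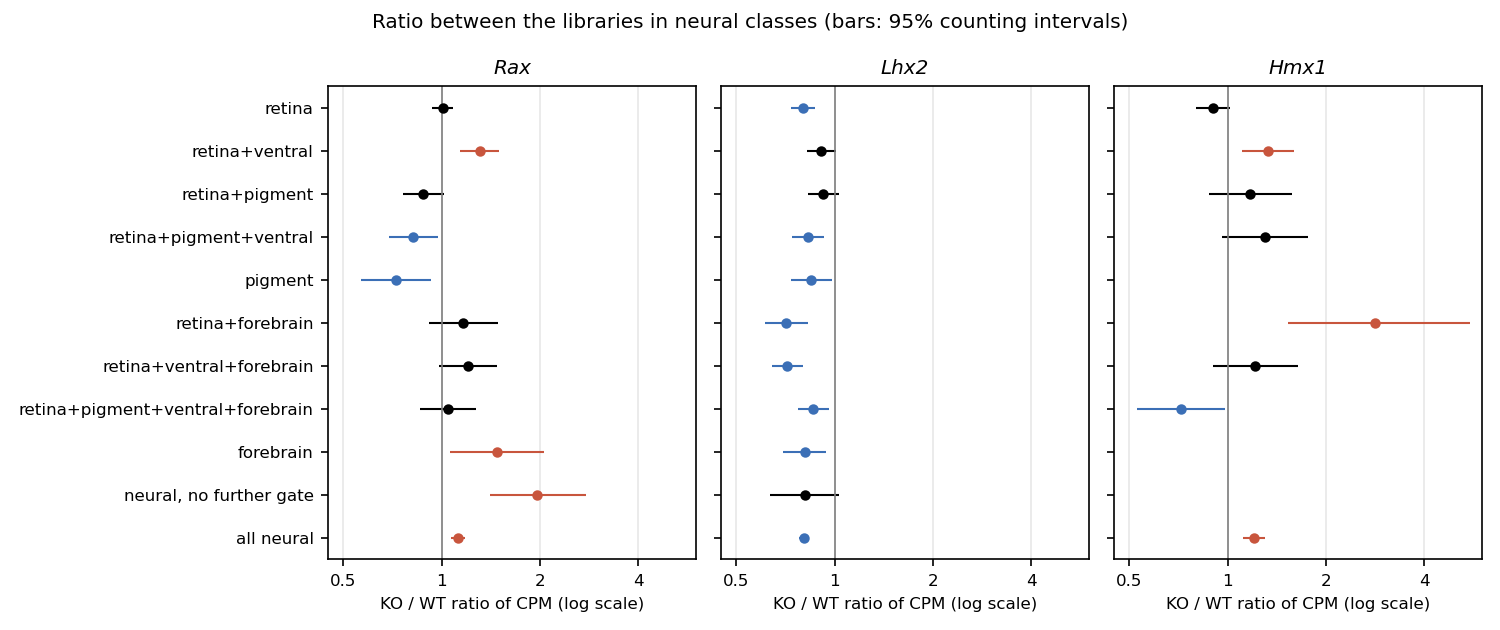
KO over WT ratio of CPM (x axis, log scale) of each member in 10 neural classes and in all neural cells (y axis), with 95% counting intervals. Points are red or blue where the interval lies above or below 1 and black otherwise, and classes with fewer than 50 UMIs of a gene are left out. *Lhx2* lies under 1 in each of the 10 classes with these gates, although not in retina+pigment cells gated on thinned counts (1.12), and *Rax* and *Hmx1* lie on both sides of 1.

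Other regulators of the eye field and optic vesicle lay on both sides of 1. Of 20 such genes, 19 had at least 50 UMIs in all neural cells, and 12 were higher and 7 lower in the library labelled KO, with a median ratio of 1.05 beside 1.006 over all genes. Those lower included *Hes1*, a Notch target, at 348 and 269 CPM (ratio 0.772, 0.748 to 0.797), *Pax6*, a paired homeodomain regulator of eye formation, at 274 and 233 CPM (0.850, 0.820 to 0.880), and *Mab21l2*, the close relative of *Mab21l1*, at 225 and 197 CPM (0.876, 0.842 to 0.910). Those higher included *Six6*, an eye field factor and the gene with the most UMIs in the list, at 332 and 369 CPM (1.11, 1.08 to 1.15), and *Six3* at 188 and 202 CPM (1.08, 1.03 to 1.12). In all neural cells some regulators were thus lower beside *Lhx2* and others higher. The part of class make-up in these pooled ratios was not tested. In retina, pigment and forebrain cells *Six3* had ratios of 1.04, 0.813 and 1.35, and *Six6* of 1.05, 0.797 and 2.035. For *Mab21l2* they were 0.772, 0.995 and 1.49. *Hes1* (0.753, 0.720 and 0.793) and *Pax6* (0.833, 0.917 and 0.720) lay under 1 in each of these classes. *Pax6* and *Six3* are markers of the neural gate and *Six6* of the retina gate.

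Close relatives of the members were scarce in neural cells. Of 11 LIM homeobox relatives of *Lhx2*, 1 (*Lhx5*, a forebrain gene and also a gate marker) reached 50 UMIs, at 1.64 and 1.33 CPM. Of the HMX relatives, *Hmx3* had 20 and 18 UMIs and *Hmx2* 5 and 10. Among 9 paired-type relatives of *Rax*, 5 reached 50 UMIs, and *Otx2* (113 and 119 CPM) and *Otx1* (58.2 and 48.7 CPM) had the most. *Alx1*, known from mesenchyme, stood at 1.496 and 2.69 CPM.

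Genes most like each member were ranked by the Pearson correlation of log2(CPM + 1) over 38 profiles (19 classes in 2 libraries), which share libraries and depth, so r is a description. *Hmx1* was most like *Cyp1b1* (r = 0.938), *Dkk3* (0.938), *Sowaha* (0.905), *Aldh1a3* (0.895) and *Mab21l1* (0.887). *Dkk3* followed it into retina cells (55.1 and 52.5 CPM) and surface ectoderm (58.0 and 48.7 CPM), with 5.48 and 3.91 CPM in forebrain cells. *Rax* was most like *Mir124-2hg* (0.947), *Gpr162* (0.946), *Vax2* (0.941), *Pax2* (0.939) and *Plppr5* (0.937), and *Lhx2* most like *Rmst* (0.965), *Mir124-2hg* (0.964), *Gpr162* (0.948), *Vax2* (0.947) and *Nlgn1* (0.947). *Rax* and *Lhx2* had r = 0.918 with each other and 0.616 and 0.613 with *Hmx1*. *Cyp1b1*, *Aldh1a3*, *Vax2* and *Pax2* were gate markers, which ties these likenesses to the classes. With a pseudocount of 10 CPM, 3 of the 5 genes stayed for *Hmx1* and 1 of 5 each for *Rax* and *Lhx2*.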

How the data were processed

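The deposited files held UMI counts per gene and barcode, which the authors made with Cell Ranger on mm10 (GRCm38) and joined with its aggr step. That step may thin the reads of the deeper library. Cells were kept with 1500 to 8000 genes detected and no more than 5% of UMIs from mitochondrial genes. Counts were summed per library and class and scaled per 1000000 UMIs (CPM). Shares were also computed after thinning each cell to 10000 UMIs, which left out 139 cells labelled WT and 194 labelled KO. Doublets were not called, and cells past gates of several tissues were kept apart. The step that computes ratio intervals was checked on simulated counts.

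The members, the lists and the gate markers were chosen with earlier results of these data known, and the marker minima of the gates were set after the data were seen. Genes named were the members, *Mab21l1*, gate markers, list genes with the most UMIs and the 5 genes most like each member among those with at least 200 UMIs. *Alx1*, *Hmx2*, *Hmx3*, *Dkk3* levels and *Raxos1* were given after their values were seen. Some genes and sequences are not reported here. Fold counts used genes with at least 50 UMIs. Gene positions came from an annotation of GRCm38, where 27645 of 27998 identifiers and all 3 members matched. Python 3.11.15, numpy 2.4.6, scipy 1.17.1 and matplotlib 3.10.9 were used. Gate stringency, thinned gating, cell filters, scaling and minima were varied, and leaving out cells above 40000 UMIs or barcode sequences found in both libraries was added after seeing the data.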

Additional observations from a re-analysis of the deposited data

Results flagged for a closer look

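The KO over WT ratios of *Rax* and *Hmx1* had intervals clear of 1 in opposite directions in different neural classes, and the difference between classes was not tested. The share of all genes that did so was not counted, so it is not read as a trait of the members. With an interval clear of 1, 9.89% of genes were lower in pigment cells and 6.64% higher in forebrain cells. For *Rax* the ratio was 1.47 in forebrain cells, 1.96 in neural cells with no further gate and 1.31 in retina+ventral cells, against 0.726 in pigment cells and 0.820 in retina+pigment+ventral cells. For *Hmx1* it was 2.81 in retina+forebrain cells and 1.33 in retina+ventral cells, against 0.722 in retina+pigment+ventral+forebrain cells. Several of these turned on the gates: retina+ventral values were 0.965 for *Rax* with 1 marker more and 0.933 for *Hmx1* with 1 marker fewer, and *Rax* was 1.04 in forebrain cells with 1 marker more and 0.932 in pigment cells gated after thinning. Each value rests on 1 embryo per genotype.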

How the results depend on the processing

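Of the KO over WT ratios recomputed under other settings, 125 stayed within the counting interval of the first value, 23 fell outside it and 2 were counted as reversed. A ratio was counted as reversed only where its first interval left out 1. Other ratios that crossed 1 are therefore among the 125 and the 23. The cause was not tested. The ratio of *Lhx2* in all neural cells stayed between 0.797 and 0.819 and that of *Hmx1* between 1.17 and 1.25. With 1 marker more, *Rax* was 1.13 in retina, 0.965 (reversed) in retina+ventral, 1.04 in retina+pigment and 1.04 in forebrain cells, and *Hmx1* was 1.13, 1.10 and 0.731 in the first 3 of these classes. With 1 marker fewer, *Rax* was 1.19 in retina, *Lhx2* 0.794 in retina+pigment, and *Hmx1* 0.773 in retina, 0.933 (reversed) in retina+ventral and 2.38 in retina+pigment cells. Gated on thinned cells, *Rax* was 1.13 in retina, 0.691 in retina+pigment and 0.932 in pigment cells, *Lhx2* 0.781 in retina+ventral and 1.12 in retina+pigment cells, and *Hmx1* 1.12, 1.68 and 0.478 in retina, retina+ventral and retina+pigment cells. With each cell in the class with its highest share of markers, retina values were 1.14 for *Rax* and 1.13 for *Hmx1*. As a mean over cells *Rax* was 1.11 in retina and 1.21 in all neural cells, and without the deepest cells, an alternative chosen after seeing the data, 1.20 in all neural cells. All 3 members were detected, with all UMIs of a cell, in 56.4% and 62.7% of retina and 37.1% and 44.8% of all neural cells, and with 2 UMIs required in 13.9% and 9.85% and in 4.58% and 4.45%. With 2 UMIs for a gate gene, *Tbx5* over *Vax2* labelled KO was 1.91 for *Hmx1* and 0.719 for *Lhx2*. Genes past 1.5-fold numbered 52, 67, 28 and 95 in retina, pigment, forebrain and all neural cells with a minimum of 200 UMIs, and genes past 2-fold 50, 51, 43 and 51. No paired analysis was possible because each genotype had 1 library and no result comes from a test. Few UMIs were counted for *Hmx1* in forebrain cells (3 and 2) and for *Rax* and *Lhx2* in surface ectoderm, which had 24 cells in each library. There *Hmx1* rested on 40 and 47 UMIs.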
